A study of Mus musculus with 24 samples.

Results

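The core circadian clock genes described here are 10 listed genes, Arntl (also called Bmal1), Clock, Per1, Per2, Per3, Cry1, Cry2, Nr1d1, Nr1d2 and Dbp, out of 54532 genes counted by RNA sequencing of mouse calf muscle. They were taken by name, and all 10 were found and passed the filter on low counts in every fit. The tissue was the left gastrocnemius of wild-type C57/BL6 mice, as 24 samples in 6 groups of 4, with 1 library per sample. Controls of each sex were sedentary, and their muscle was injected on 2 occasions 5 days apart with 20 µl of saline at pH 7.2. In the sedentary pain groups (pH 5.0) both injections were acidic, and the second followed 6 min of electrically stimulated contraction. The active pain groups (Ex + pH 5.0) had running wheels for 8 weeks and then the same pain model. The time label is 24 h for every sample. The hour of the day at which tissue was taken, and the age of the mice, are not given in the sources used here. Since controls had neither acid nor contraction, and no active group without pain is among the samples, these parts of the treatment cannot be told apart.

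The clock is a loop of transcription and translation found in nearly all cells, muscle fibres included. ARNTL and CLOCK bind as a pair to E-box sequences and switch on the Period and Cryptochrome genes, whose proteins return to the nucleus and block that pair. A second arm runs through the nuclear receptors NR1D1 and NR1D2 (REV-ERB alpha and beta), which repress Arntl, and through the ROR receptors, which activate it. DBP is a transcription factor driven by the same E-boxes that acts on D-box sequences. In skeletal muscle the loop is known for daily rhythms of fuel use and of muscle-specific genes, with Arntl transcripts peaking at about the opposite phase to Dbp.

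The promoter sequences that carry these motifs are shown first, because the E-box and the D-box are the sites through which the members act on each other. RefSeq promoter windows (GRCm38.p6) were found for 9 of the 10 members, all but Per2, in 13 windows. The 250 bases before the RefSeq start were searched on both strands. That start can lie inside the gene as placed by GENCODE below. Windows 1 and 2 of Per1 and window 3 of Clock had 0 bases before both starts, window 2 of Clock 6 and that of Dbp 91. The others had 204 to 250. The Per1 E-box shown thus lies inside the gene span given below. The E-box searched was CACGTG and the D-box was TTANGTAA. The E-box was present in a window of 2 members, Cry1 and Per1, and the D-box in 1 member, Per3, which holds it at 2 places. Of all 32851 RefSeq windows of the same length, 6.02% held this E-box and 2.06% this D-box. Matches to the ROR and REV-ERB element were searched as TAGGTCA and TGGGTCA, held by 2.23% and 3.24% of all windows, and 0 members held either. Only exact letters within these 250 bases were searched. A member without a match may therefore still hold a variant of the motif or a site elsewhere. In the sequences that follow, the capitals mark the E-box in Cry1 and Per1 and the D-boxes in Per3. The stretches lie at chr10:85185085-85185144 (minus strand), chr11:69098769-69098798 (plus strand) and chr4:151044811-151044880 (minus strand).
Cry1: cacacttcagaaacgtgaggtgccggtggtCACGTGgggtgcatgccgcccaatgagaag
Per1: ccagcacccaagtcCACGTGcagggatgtg
Per3: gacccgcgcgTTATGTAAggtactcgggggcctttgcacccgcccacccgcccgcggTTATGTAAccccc

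All 10 members are protein-coding genes and are placed here by GENCODE M21 (GRCm38). Arntl lies on chromosome 7 (113207465 to 113314126, plus strand), as does Dbp (45705088 to 45710203, plus strand). Nr1d1 lies on chromosome 11 (98767932 to 98775333, minus strand), as does Per1 (69095217 to 69109960, plus strand). Clock is on chromosome 5 (76209868 to 76304792), Cry1 on 10 (85131700 to 85185064), Nr1d2 on 14 (18204054 to 18239127), Per2 on 1 (91415982 to 91459324), Per3 on 4 (151003652 to 151044665) and Cry2 on 2 (92403646 to 92434043), all on the minus strand.

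Total counts ran from 17612139 to 34039699 per sample, and the members' counts from 39 (Per2) to 7773 (Nr1d1). Levels are given as CPM, read counts scaled to library size with factors from the trimmed mean of M-values. Muscle fibre markers had the highest sum of the marker lists in every library, at 81730 to 191848 CPM over 8 genes. The summed level of 9 macrophage markers was 84.2 to 183 CPM in female controls, 405 to 4625 CPM in female sedentary pain and 207 to 423 CPM in female active pain. In males the same sums were 58.1 to 123, 118 to 736 and 186 to 437 CPM. Male sedentary pain replicate 1 stood apart from the other 3 of its group, with the 736 CPM and a summed level of 6 neutrophil markers of 327 CPM against 5.82 to 7.21 CPM. Male active pain replicate 2 also stood apart, with 91.6 CPM of neutrophil markers against 8.79 to 11.8 CPM. In bulk muscle, fewer cells of a type and less RNA per cell cannot be told apart. In the lists of 8 fibre and 9 macrophage markers, no gene was at 0 in all 4 samples of a group. Nothing in the labels says how the 4 samples of a group were obtained beyond their replicate numbers, so the p-values measure the spread between these samples.

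Levels between the members can be compared only per length, and were therefore also expressed as CPM per kilobase of exon. By group mean Nr1d1 was the most abundant member in all 6 groups, at 65.0 ± 1.41 CPM per kb (SD, n = 4) in female controls and 75.1 ± 1.30 CPM per kb in male controls. In female active pain the ranges of Nr1d1 (44.2 to 51.7 CPM per kb) and Dbp (11.8 to 57.1 CPM per kb) overlapped. In female controls Nr1d2 (15.2 ± 2.18 CPM per kb) and Dbp (13.7 ± 3.38 CPM per kb) followed, with overlapping ranges. The order then ran through Cry2, Cry1, Arntl, Per1, Clock and Per3 to Per2, the lowest member at 0.429 ± 0.0855 CPM per kb. Cry1, Arntl, Per1 and Clock overlapped each with its neighbour in that order, while Dbp, Cry2, Clock and Per3 were each separated from the next lower gene. In male controls the order was the same at the top and Per3 and Per2 overlapped at the bottom, at 0.855 and 0.850 CPM per kb.

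**Figure D1:**
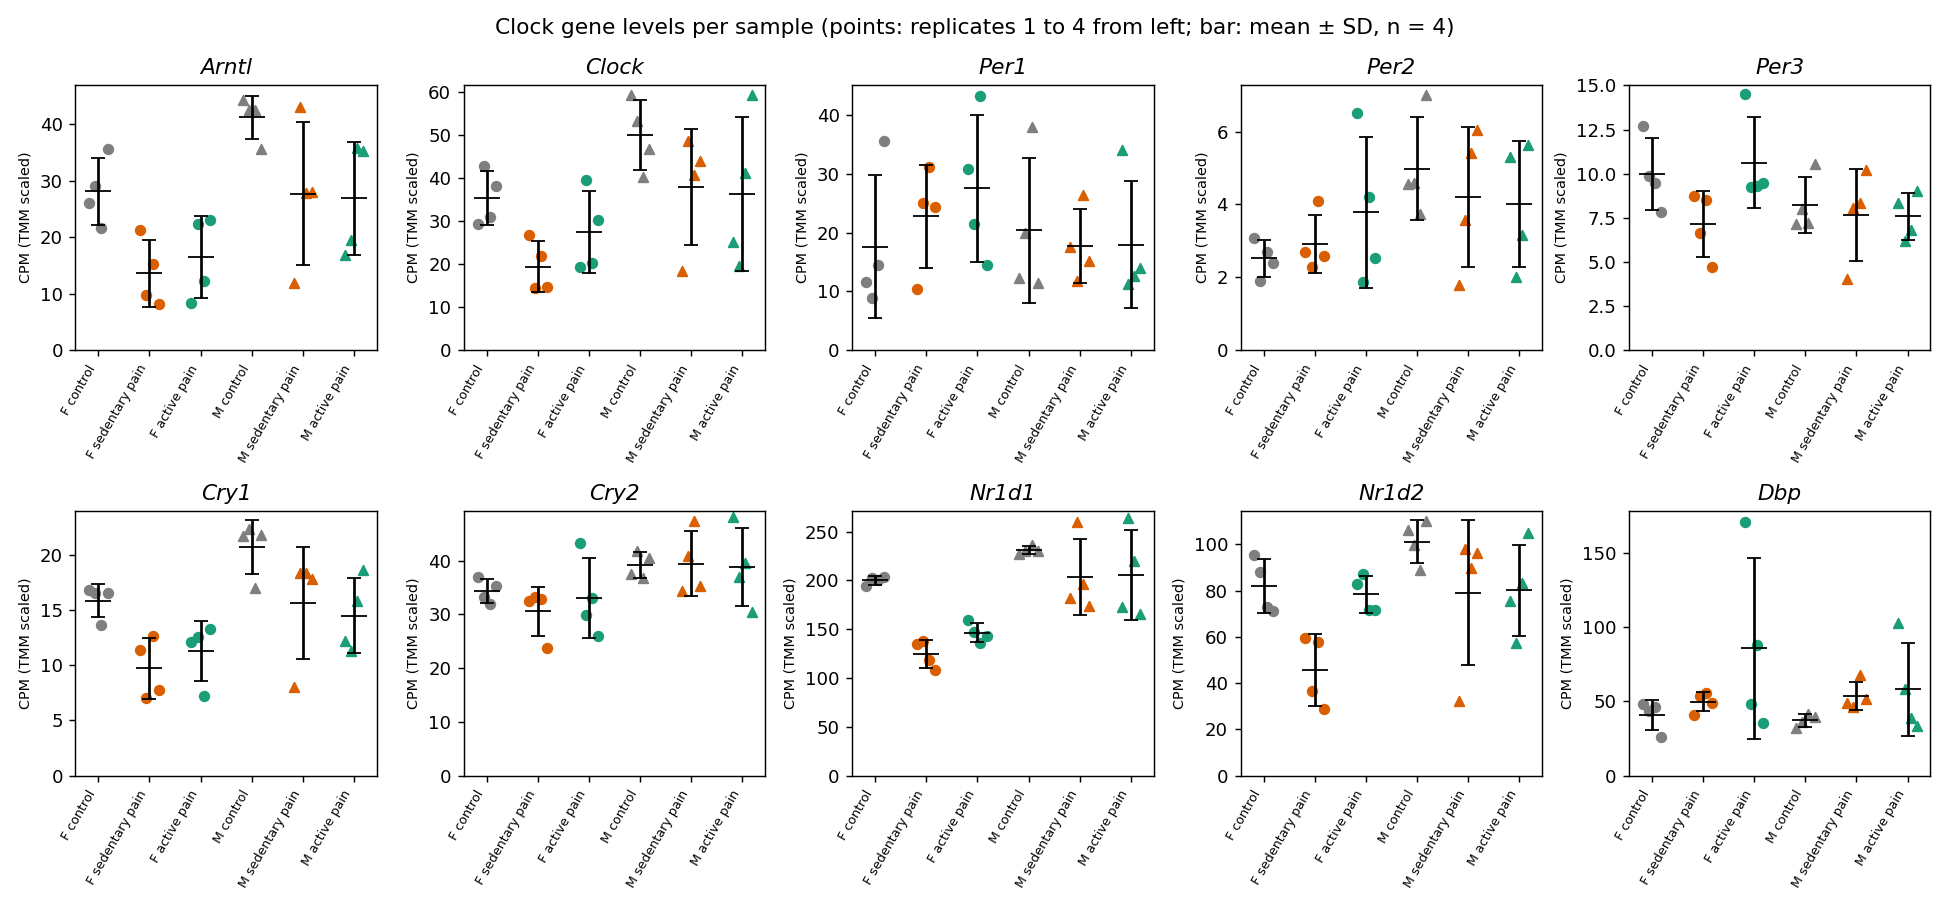
CPM of each clock gene (y axis, from 0) in the 24 samples, by group on the x axis (F female, M male), with circles for females and triangles for males; points run from replicate 1 to replicate 4 and bars give the mean ± SD (n = 4). In the female sedentary pain group all 4 samples of Arntl, Clock, Cry1, Nr1d1 and Nr1d2 lie under the 4 female controls, and Dbp in female active pain reaches 171 CPM in replicate 1.

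The first question was how the clock genes differ in sedentary females with muscle pain. Both activators fell, Arntl 2.09-fold and Clock 1.84-fold, as did both REV-ERB genes (Nr1d1 1.63-fold, Nr1d2 1.81-fold) and the repressor Cry1 (1.65-fold). No member rose. Thus 5 of the 10 members were lower past the threshold (edgeR quasi-likelihood F test, Benjamini-Hochberg adjusted p under 0.05 over 14511 genes), where 13.9% of all genes tested were lower and 33.5% differed in either direction. The median log2 fold change was -0.60 over the members and -0.02 over all genes tested.

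Arntl, the partner of Clock that the loop cannot run without, had 26.1, 29.0, 21.6 and 35.6 CPM in female controls (replicates 1 to 4) and 21.2, 9.69, 15.3 and 8.09 CPM in female sedentary pain. The lowest control sample (21.6 CPM) lay just above the highest pain sample (21.2 CPM), and pain replicates 2 and 4 were the lowest. The log2 fold change was -1.06 ± 0.36 (SE, adjusted p = 0.0422), and without the filter on low counts Arntl did not pass (-1.08, adjusted p = 0.0665). Clock had 29.3, 42.9, 31 and 38.1 CPM in controls and 26.7, 14.5, 21.9 and 14.6 CPM with pain. The groups did not overlap, and pain replicates 2 and 4 were again the lowest. Its log2 fold change was -0.88 ± 0.27 (adjusted p = 0.0297).

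Of the repressors of the ARNTL and CLOCK pair, only Cry1 passed the test. Cry1 had 16.8, 16.5, 13.6 and 16.5 CPM in female controls and 11.3, 7.07, 12.7 and 7.74 CPM in sedentary pain. All 4 pain samples were under the lowest control, and the log2 fold change was -0.72 ± 0.23 (adjusted p = 0.0318). Cry2 was at 34.4 ± 2.22 and 30.6 ± 4.56 CPM, a log2 fold change of -0.19 ± 0.16 (adjusted p = 0.366). The light- and stress-responsive Per1 spread from 8.83 to 35.7 CPM in controls and from 10.4 to 31.3 CPM with pain, so the groups overlapped over most of their range. Its log2 fold change was 0.35 ± 0.47 (adjusted p = 0.574), that of Per2 0.20 ± 0.35 (adjusted p = 0.676) and that of Per3 -0.50 ± 0.23 (adjusted p = 0.111).

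The REV-ERB genes gave the smallest adjusted p-values of the 10 members. Nr1d1 had 194, 203, 200.4 and 203 CPM in female controls and 134, 138, 118 and 108 CPM in sedentary pain. The controls lay close together (SD 4.33 CPM), and every pain sample was far under the lowest control. The log2 fold change was -0.70 ± 0.11 (adjusted p = 0.00260). Nr1d2 had 95.6, 88.0, 73.0 and 71.3 CPM in controls and 59.7, 36.4, 57.9 and 28.9 CPM with pain, with no overlap and the lowest values again in replicates 2 and 4. Its log2 fold change was -0.86 ± 0.22 (adjusted p = 0.0142). Dbp, the output factor, had 48.0, 43.2, 46.4 and 26.0 CPM in controls and 40.8, 53.7, 55.4 and 49.0 CPM with pain. The groups overlapped, and its log2 fold change was 0.26 ± 0.40 (adjusted p = 0.619).

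The CPM ranges of the groups did not overlap for 5 of the 10 members, all 5 lower with pain, where 11% of all genes tested had ranges apart in that direction and 26.3% in either direction. Leaving out single libraries ended the calls of Arntl, Clock and Cry1: 2 members passed without sedentary pain replicate 2 or 4 or control replicate 2 or 4, 3 without control replicate 1, and Arntl alone was lost without sedentary pain replicate 3 (adjusted p = 0.0579). Nr1d1 and Nr1d2 passed in all 12 such fits, with largest adjusted p-values of 0.0131 and 0.0382. A number in the library names separates replicates 1 and 2 from replicates 3 and 4 without saying what it stands for. Within replicates 1 and 2 alone 0 members passed (log2 fold change of Nr1d1 -0.55, adjusted p = 0.149), and within replicates 3 and 4 alone Nr1d1 passed, with all 5 genes still lower in both subsets. With that split as a term of the fit, an alternative added after seeing the data, these 5 members passed again, with Arntl at an adjusted p of 0.0437. With the replicate numbers as a block in the fit, Arntl (adjusted p = 0.0908), Clock (0.0638) and Cry1 (0.0639) did not pass.

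Part of Nr1d1's transcript overlaps the thyroid hormone receptor gene Thra on the opposite strand of chromosome 11, and the sources used here do not say whether counting used strand. Thra had 84.3 ± 0.69 CPM in female controls and 54.6 ± 4.96 CPM in sedentary pain (SD, n = 4), a log2 fold change of -0.65 ± 0.11 (adjusted p = 0.00318). In active pain Thra had 78.1 ± 9.19 CPM (log2 fold change -0.11 ± 0.11 against control, adjusted p = 0.843). Where the 2 genes overlap, reads of one cannot be told apart from reads of the other if strand was not used. Dbp overlaps Sphk2 on the opposite strand and Per3 overlaps Camta1 on the same strand.

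The macrophage marker sum moved with the pain label in females: pain replicates 1 to 4 had 405, 673, 3440 and 4625 CPM. The 2 samples with the lowest Arntl, Clock, Cry1 and Nr1d2, replicates 2 and 4, had 673 and 4625 CPM. The neutrophil marker sum was 25.8, 277, 44.0 and 64.5 CPM in pain replicates 1 to 4, higher in those 2 samples than in the other 2, and 2.82 to 8.07 CPM in controls. All 9 macrophage markers passed the test as higher in female sedentary pain, and 2 of 8 fibre markers as lower. All 8 fibre markers had fitted values below 0, with a median log2 fold change of -0.64 beside the -0.60 of the clock genes. The 6 neutrophil markers also rose (median log2 fold change 5.46), as did both T cell and both B cell markers that passed the filter on low counts, out of lists of 6 and 5. Of 7 adipocyte markers 6 fell (median log2 fold change -2.99), with sums of 280 to 5682 CPM in controls and 195 to 674 CPM in pain. Of 5 endothelial markers 2 fell, and of 5 fibroblast markers 1 rose. The mitochondrial share of the counts was 8.60%, 11.02%, 8.59% and 8.85% in female controls and 8.22%, 3.85%, 5.86% and 2.75% in sedentary pain, so every pain sample was under every control. The part of cell makeup and of the mitochondrial share in the fall of the 5 clock genes was not tested. Across all 24 samples, after subtracting group means, the members' log2 CPM had correlations with the macrophage sum from r = -0.55 (Nr1d2) to 0.35 (Per1). None of the 20 correlations of the 10 members with the macrophage or fibre sum, chosen after earlier results had been seen, passed the threshold (smallest adjusted permutation p = 0.213, for Cry2 with either sum).

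**Figure D2:**
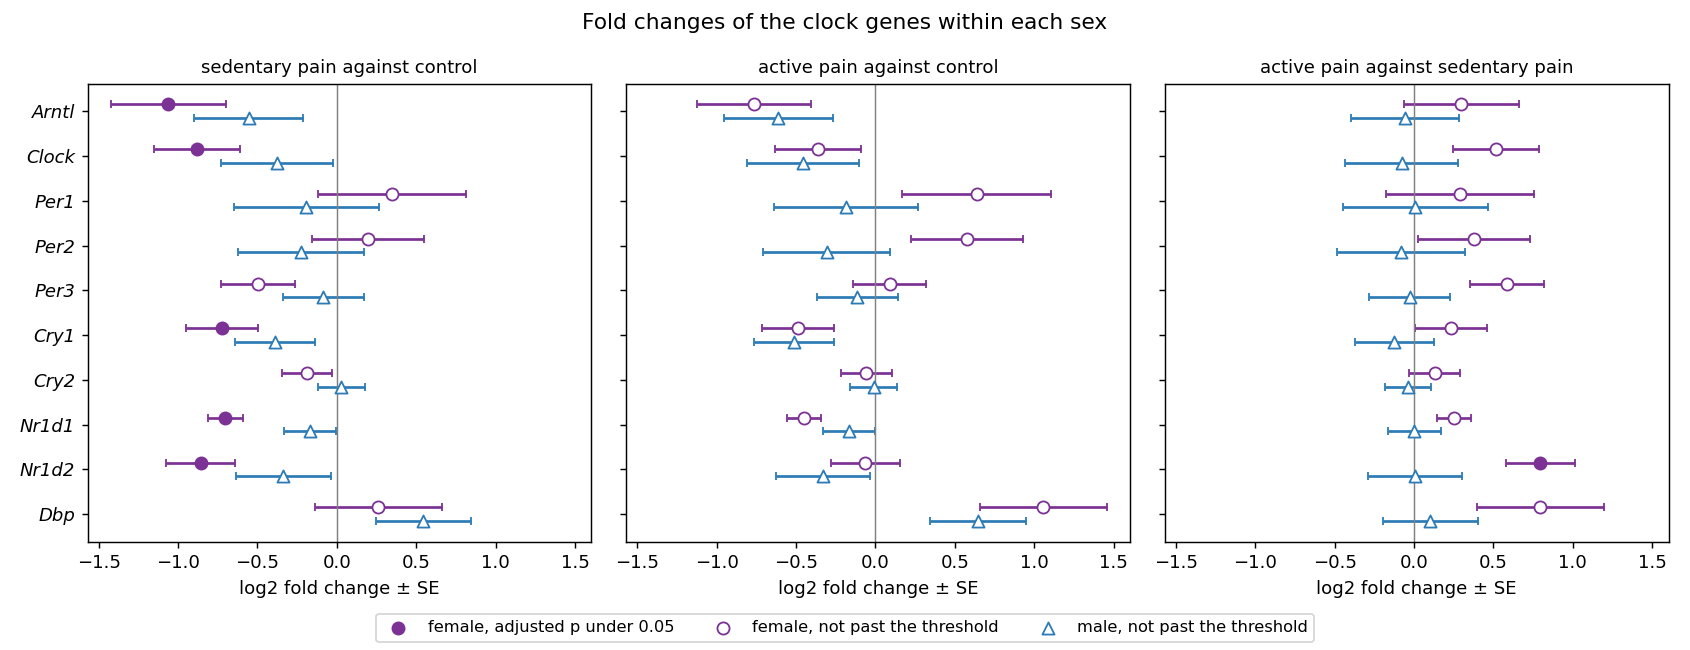
Log2 fold change ± SE (x axis) of the 10 clock genes (y axis) in females (circles) and males (triangles) for the 3 comparisons within each sex; filled symbols have an edgeR adjusted p under 0.05. The left panel holds 5 filled female symbols left of 0, the middle panel none, and the right panel 1, Nr1d2 at 0.79.

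The second question was how active females with pain differ from controls, which are the same 4 samples as in the comparison above. No member passed the test, and 0% of the 14511 genes did. At an unadjusted p under 0.05 there were 2 members, Nr1d1 and Dbp, against 7.03% of all genes. DESeq2 called 1 member, Nr1d1 (adjusted p = 0.00808), and 124 genes in all. Nr1d1 had 159, 148, 136 and 143 CPM in active pain, all 4 below the lowest female control (194 CPM). Its log2 fold change was -0.45 ± 0.11 (unadjusted p = 0.00138, adjusted p = 0.565), and 0.186% of the genes tested had a smaller p. At an unadjusted p under 0.05 there were also 7 of 7 adipocyte markers (median log2 fold change -2.54). The same held for 5 of 6 neutrophil (median 4.42) and 5 of 9 macrophage markers (median 1.38), and for 0 of 8 fibre markers. The part of cell makeup in the values of the clock genes was not tested.

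Cry1 was the other member with ranges apart, at 12.1, 12.6, 7.24 and 13.3 CPM, just under the lowest control (13.6 CPM). Its log2 fold change was -0.49 ± 0.23 (adjusted p = 0.713). Both were lower, 2 of 10 members, where 1.83% of all genes had ranges apart and lower and 5.44% in either direction. Nr1d2 had 82.7, 87.4, 71.6 and 71.7 CPM, inside the control range of 71.3 to 95.6 CPM (log2 fold change -0.06 ± 0.22, adjusted p = 0.941).

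Arntl and Dbp split the active females into 2 pairs of samples. Arntl had 8.38, 22.3, 12.1 and 23.0 CPM, and Dbp had 171, 48.0, 88.0 and 35.4 CPM in the same replicates 1 to 4. Replicates 1 and 3 were low in Arntl and high in Dbp, while replicates 2 and 4 lay inside the control range in Arntl. In Dbp replicate 4 lay inside the control range and replicate 2 at its upper end, with 48.0 CPM like the highest control. Clock had the same order of pairs, at 19.4, 39.6, 20.3 and 30.3 CPM. The log2 fold changes were -0.76 ± 0.36 for Arntl (adjusted p = 0.721), -0.36 ± 0.27 for Clock (adjusted p = 0.837) and 1.06 ± 0.40 for Dbp (unadjusted p = 0.0215, adjusted p = 0.624). Without active pain replicate 1 the value of Dbp was 0.47 (adjusted p = 0.996). Among the Period and Cryptochrome genes, the fold changes were 0.64 ± 0.47 for Per1 and 0.58 ± 0.35 for Per2 on the log2 scale. Per3 was at 0.09 ± 0.23 and Cry2 at -0.06 ± 0.16, and these 4 had adjusted p-values of 0.832 to 0.928.

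The third question was how active and sedentary females with pain differ. The REV-ERB gene Nr1d2 rose 1.73-fold in active animals and was the only member past the threshold, where 2.51% of the 14511 genes rose and 11.9% differed in either direction. Its 71.6 to 87.4 CPM in active pain lay above the 28.9 to 59.7 CPM in sedentary pain in all 4 samples (log2 fold change 0.79 ± 0.22, adjusted p = 0.0391). The call was kept in only 2 of the 12 fits that left out 1 female library (without sedentary pain replicate 1 or control replicate 3). In the other 10 fits its log2 fold change was between 0.61 and 0.91 and the adjusted p between 0.0501 and 0.11. Nr1d2 did not pass either without the filter on low counts (adjusted p = 0.0590), with only the groups compared fitted (0.0931), with all 24 samples in 1 fit (0.0542), or within replicates 1 and 2 (0.316) or 3 and 4 (0.176) alone. Per3, a Period gene, also had ranges apart, at 14.5, 9.22, 9.32 and 9.46 CPM in active and 8.74, 6.66, 8.50 and 4.70 CPM in sedentary pain. Its log2 fold change was 0.58 ± 0.23 (adjusted p = 0.109). These 2 of 10 members compare with 5.42% of all genes with ranges apart and higher, and 11.8% in either direction.

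The fitted values of the other 8 members against sedentary pain were all above 0 without passing the test. On the log2 scale they were 0.80 ± 0.40 for Dbp (adjusted p = 0.186), 0.52 ± 0.27 for Clock (0.200), 0.38 ± 0.35 for Per2 and 0.30 ± 0.36 for Arntl. Without active pain replicate 1 the value of Dbp was 0.20 (adjusted p = 0.672). Per1 (0.29 ± 0.47), Nr1d1 (0.25 ± 0.11, adjusted p = 0.137), Cry1 (0.23 ± 0.23) and Cry2 (0.13 ± 0.16) made up the rest. Nr1d1 thus had mean levels of 200.0, 125 and 146.4 CPM in female control, sedentary pain and active pain, and Nr1d2 had 82.0, 45.7 and 78.4 CPM. The macrophage marker sum was lower in active (207 to 423 CPM) than in sedentary pain for 3 of the 4 sedentary samples, and 7 of 9 macrophage markers fell. Both T cell markers tested also fell (median log2 fold change -4.56). None of the 8 fibre markers passed, and all 8 had fitted values above 0 (median 0.46), as did the 10 clock genes (median 0.34). The mitochondrial share was 6.67% to 11.4% in active and 2.75% to 8.22% in sedentary pain. The part of these in the rise of Nr1d2 was not tested.

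In males no clock gene passed the test in any of the 3 comparisons, and neither did any other gene (0% of 14404 genes each time with edgeR). At an unadjusted p under 0.05 there were 0 members in each, against 8.84%, 7.25% and 0.84% of all genes for sedentary pain against control, active pain against control and active against sedentary pain. DESeq2 also called 0 members in each. Male controls had narrower ranges of Arntl, Nr1d1 and Nr1d2 than either male pain group.

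Arntl had 44.3, 42.5, 42.6 and 35.6 CPM in male controls, 11.9, 43.1, 27.9 and 28 CPM in sedentary pain and 16.9, 19.6, 35.8 and 35.3 CPM in active pain. In sedentary pain replicates 1, 3 and 4 lay under the lowest control (35.6 CPM), replicate 1 furthest, and replicate 2 lay inside the control range. In active pain replicates 1 and 2 were far under the controls, and replicates 3 and 4 were close to the lowest control. The log2 fold changes were -0.56 ± 0.34 (adjusted p = 0.624) and -0.61 ± 0.34 (adjusted p = 0.634). Clock had 59.4, 53.2, 40.4 and 46.9 CPM in controls and 18.4, 48.7, 40.7 and 44.0 CPM in sedentary pain, so that only replicate 1 lay below the controls. In active pain it had 25.1, 19.4, 41.2 and 59.4 CPM, low in the same 2 replicates as Arntl. Its log2 fold changes were -0.38 ± 0.35 and -0.46 ± 0.35.

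Cry1 was at 20.7 ± 2.48 CPM in male controls, 15.6 ± 5.08 CPM in sedentary pain and 14.5 ± 3.40 CPM in active pain (log2 fold changes -0.39 ± 0.25 and -0.51 ± 0.25, adjusted p = 0.631 and 0.634). Nr1d1 had 227, 230.5, 236 and 230.5 CPM in male controls, as close together as in females. In sedentary pain it had 182, 260.2, 197 and 174 CPM and in active pain 172, 264, 220.4 and 165 CPM. In each pain group replicate 2 was above all controls and the other 3 were below them, with log2 fold changes of -0.17 ± 0.17 in both comparisons (adjusted p = 0.658 and 0.640). Nr1d2 had 106, 99.7, 89.0 and 110.0 CPM in controls, 32.4, 98.0, 90 and 96.2 CPM in sedentary pain and 75.5, 57.3, 83.2 and 105 CPM in active pain. Without male sedentary pain replicate 1 its log2 fold change for sedentary pain moved from -0.34 ± 0.30 to -0.08.

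Dbp had 31.8, 35.8, 41.6 and 39.6 CPM in male controls and 48.8, 46.5, 67.6 and 51.5 CPM in sedentary pain. All 4 pain samples were above all controls, with a log2 fold change of 0.54 ± 0.30 (adjusted p = 0.608). It was the 1 member of 10 with ranges apart in this comparison, where 8.07% of all genes had ranges apart and 3.95% higher. In active pain Dbp had 102, 58.0, 38.7 and 33.2 CPM, overlapping the controls (log2 fold change 0.65 ± 0.30, adjusted p = 0.634), and 0 members had ranges apart, against 10.4% of all genes. The high Dbp samples, replicates 1 and 2, were those with low Arntl.

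Without both male pain libraries that stood apart, a choice made after seeing the data, 0 members passed in males. The log2 fold changes for sedentary pain were then -0.31 for Arntl, -0.15 for Clock, -0.17 for Cry1, -0.12 for Nr1d1, -0.08 for Nr1d2 and 0.58 for Dbp. For active pain they were -0.48, -0.24, -0.40, -0.30, -0.19 and 0.66 in the same order. Between active and sedentary males the 10 members lay between -0.12 and 0.10 on the log2 scale, every adjusted p was 0.9999, and 0 members had ranges apart (0.646% of all genes).

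Whether the changes differed between the sexes was tested directly on all 24 samples, as the male minus the female log2 fold change. No member passed for any of the 3 changes, and 0% of 15103 genes did with edgeR. At an unadjusted p under 0.05 there were 1, 0 and 0 members, against 9.57%, 2.03% and 14.7% of all genes, and DESeq2 called 0 members. The 1 member was Nr1d1 in sedentary pain against control, 0.50 ± 0.20 (unadjusted p = 0.0185, adjusted p = 0.447). The other 4 genes that fell in females had differences of 0.47 ± 0.52 (Arntl), 0.47 ± 0.46 (Clock), 0.30 ± 0.35 (Cry1) and 0.49 ± 0.38 (Nr1d2) (adjusted p = 0.714 to 0.788). The fall in females is therefore not shown to differ from the values in males. Without both male libraries that stood apart these differences were larger, and 0 members passed: 0.78 for Arntl (adjusted p = 0.269), 0.75 for Clock (0.201), 0.58 for Cry1 (0.177), 0.81 for Nr1d2 (0.0747) and 0.60 for Nr1d1 (0.0571). For active against sedentary pain the difference of Nr1d2 was -0.76 ± 0.38 (adjusted p = 0.356). Without male sedentary pain replicate 1 it was -1.02 (adjusted p = 0.0280), the only member to pass in that fit, and without both male libraries that stood apart -0.93 (adjusted p = 0.0709).

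Male and female controls were compared as the saline-injected background, with log2 fold changes given as male over female. No member passed, where 2.83% of 15103 genes did (unadjusted p under 0.05 for 1 member, Per2, and for 14.9% of all genes, DESeq2 calling 0 members). Per2, the least abundant member, had 3.08, 1.89, 2.70 and 2.38 CPM in females and 4.57, 4.58, 3.73 and 7.02 CPM in males (log2 fold change 0.99 ± 0.39, adjusted p = 0.233). Per2, Cry1 and Nr1d1 were higher in every male control than in any female control, 3 of 10 members, against 13% of all genes higher and 22.3% in either direction. Cry1 differed by 0.38 ± 0.24 (adjusted p = 0.466) and Nr1d1 by 0.21 ± 0.14 (adjusted p = 0.483). Arntl differed by 0.55 ± 0.37 (adjusted p = 0.481) and Clock by 0.50 ± 0.33 (adjusted p = 0.475). With only the 8 control samples fitted, so that the spread of the pain groups did not enter, Arntl (0.53, adjusted p = 0.0369) and Per2 (0.97, adjusted p = 0.0250) passed, as did 13.5% of the 14055 genes tested in that fit. In the fit of all 24 samples, all 7 adipocyte markers had lower fitted values in male controls (median log2 fold change -2.35), and 2 of them passed. Their summed level was 438, 280, 5682 and 2751 CPM in female control replicates 1 to 4 and 135 to 642 CPM in male controls. Its part in these values was not tested.

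Replicates of 1 group differed among themselves in several clock genes. Each gene's log2 CPM was taken as the deviation from its group mean, and Arntl was correlated with the other 9 members over the 24 samples, with permutations within groups. Clock followed Arntl with r = 0.88 (rho = 0.90, adjusted permutation p = 0.000450), Cry1 with r = 0.75 (rho = 0.76, adjusted p = 0.00861) and Nr1d2 with r = 0.69 (rho = 0.66, adjusted p = 0.0159). Dbp went the other way, with r = -0.67 (rho = -0.65, adjusted p = 0.00850). Correlations of this size with Arntl were common among genes outside the clock. Of 11150 other genes whose mean log2 CPM was 1 or more, 35.5% had an r at least as far from 0 as that of Nr1d2, 39.5% as that of Dbp, 24.4% as that of Cry1 and 1.18% as that of Clock. In the same direction, 0.179% had an r as high as that of Clock, 12.8% as high as Cry1, 19.4% as high as Nr1d2 and 17.9% as low as Dbp. Nothing particular to the clock is read from the values of Cry1, Nr1d2 and Dbp. The remaining 5 members did not pass, with r of 0.30 for Per3, 0.21 for Nr1d1, -0.02 for Per2, -0.16 for Cry2 and -0.33 for Per1.

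These relations held in both sexes in direction: for Clock r was 0.91 in females and 0.89 in males, for Cry1 0.62 and 0.87, for Nr1d2 0.52 and 0.84, and for Dbp -0.79 and -0.51. Within replicates 1 and 2 and within replicates 3 and 4, r was 0.94 and 0.77 for Clock, 0.85 and 0.83 for Cry1, 0.81 and 0.48 for Nr1d2, and -0.63 and -0.66 for Dbp. Without the 2 samples farthest from the median of Arntl, female active pain replicate 1 and male sedentary pain replicate 1, r was 0.84, 0.78, 0.66 and -0.72. Without male sedentary pain replicate 1 alone, 2 of the 4 relations passed, Clock (r = 0.84, adjusted p = 0.00265) and Dbp (r = -0.82, adjusted p = 0.00108). Those of Cry1 (r = 0.64, adjusted p = 0.0712) and Nr1d2 (r = 0.54, adjusted p = 0.120) did not. The mitochondrial share of the counts moved with Arntl in the pain groups, less clearly so in controls. In female controls it was 8.60%, 11.02%, 8.59% and 8.85% in replicates 1 to 4, with Arntl highest in replicate 4. In male controls it was 11.2%, 9.44%, 9.43% and 11.1%, with Arntl lowest in replicate 4. In active females it was 6.67% and 6.87% in replicates 1 and 3, which were low in Arntl, and 11.4% and 10.1% in replicates 2 and 4. In sedentary females it was 3.85% and 2.75% in replicates 2 and 4, again the 2 with the lowest Arntl, against 8.22% and 5.86% in replicates 1 and 3. Male sedentary pain replicate 1 had 4.53% against 10.4% to 11.3% in the other 3 of its group, and male active pain replicates 1 to 4 had 8.14%, 5.97%, 9.27% and 12.6%. Its part in these relations was not tested.

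**Figure D3:**
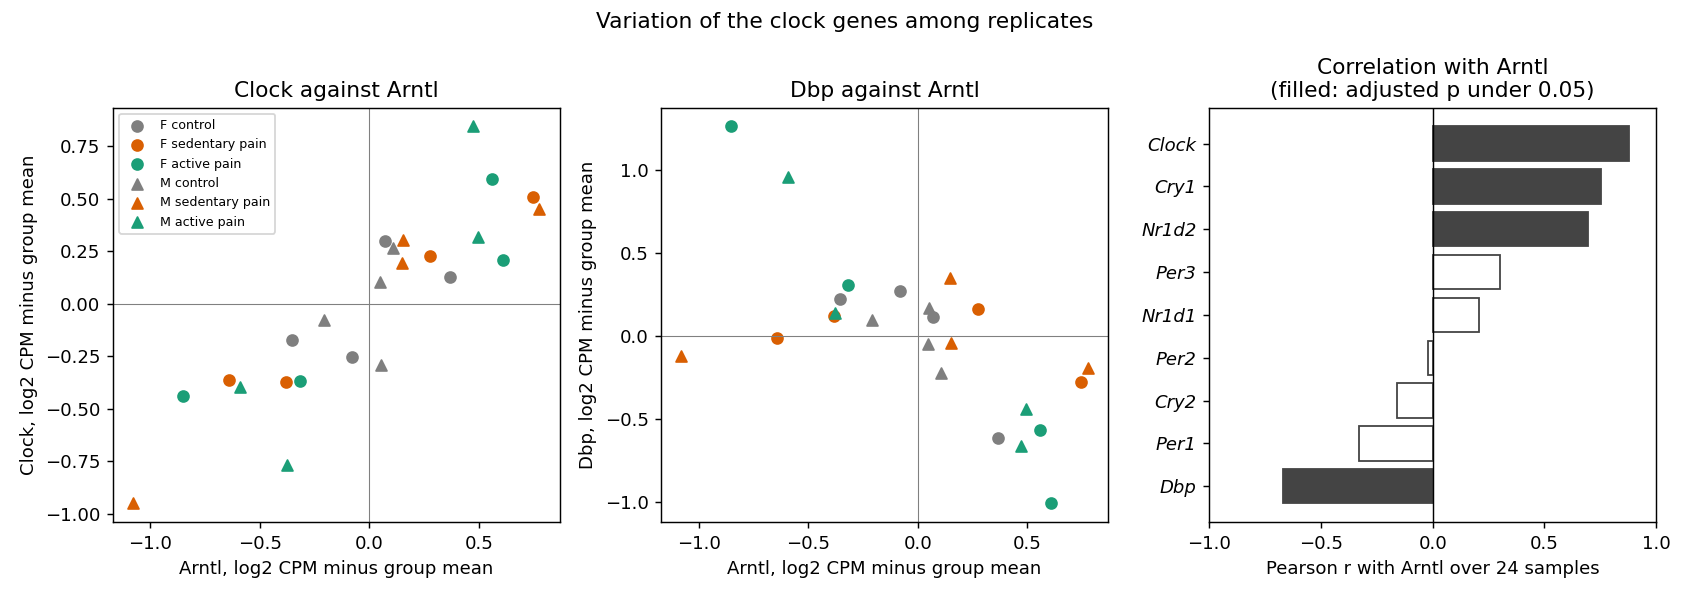
Left and middle, log2 CPM minus the group mean of Clock and of Dbp (y axes) against that of Arntl (x axes) in the 24 samples, coloured by group; right, Pearson r of each other member with Arntl (x axis), filled where the adjusted permutation p is under 0.05. Clock rises with Arntl (r = 0.88), Dbp falls with it (r = -0.67), and 4 bars are filled.

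The ratio of Dbp to Arntl CPM within a sample puts the opposed pair on 1 scale, as a description with no test. In controls it ran from 0.730 to 2.15 in females (median 1.66) and from 0.719 to 1.11 in males (median 0.909). In sedentary pain it was 1.92, 5.54, 3.62 and 6.06 in female replicates 1 to 4, and 4.10, 1.08, 2.43 and 1.84 in male replicates. In active pain it was 20.4, 2.16, 7.25 and 1.53 in females and 6.07, 2.96, 1.08 and 0.941 in males. All 4 pain groups had a median above both control groups, from 2.02 (male active pain) to 4.70 (female active pain). All 4 pain groups held a sample inside the control range of their sex beside samples above it.

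**Figure D4:**
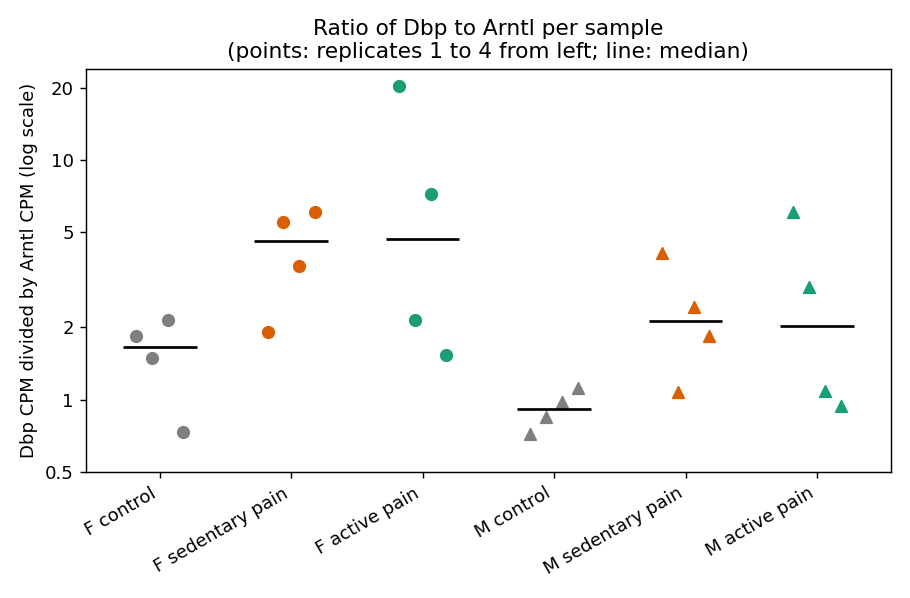
Dbp CPM divided by Arntl CPM (y axis, log scale) in each of the 24 samples by group (x axis; F female, M male); lines are group medians. Controls lie between 0.719 and 2.15, and the highest value is 20.4 in female active pain replicate 1.

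The genes most like Arntl from sample to sample were ranked by the same deviations over 24 samples, among 11151 genes whose mean log2 CPM was 1 or more. The 5 highest non-members were Gclc (r = 0.91), Smyd4 (0.90), Tmx4 (0.90), Taf2 (0.90) and Ripor1 (0.89), and the 3 lowest were Srp14 (-0.92), Sf3b5 (-0.92) and Ube2s (-0.92). For Dbp the highest included Coq10b (r = 0.77), Usp2 (0.75), Cwc15 (0.73) and Dolk (0.72), and the lowest Sox4 (-0.80), Pdik1l (-0.77) and Fbxo32 (-0.73). Coq10b and Usp2 also stood on the lists of clock-linked genes described next. Usp2, a ubiquitin protease, had 187, 114, 156 and 86.8 CPM in active females, with the 2 high samples being the 2 with high Dbp. Coq10b, a coenzyme Q binding protein, had 18, 13.5, 16.0 and 10.9 CPM in the same samples. These values are a description of likeness over samples that share their libraries and depth.

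Other genes of the clock were read from lists chosen with earlier results of these data in view. Of 11 further clock factors, 10 were tested, and 2 fell and 0 rose in female sedentary pain, where 13.9% of all genes tested fell and 33.5% changed in either direction. They were Tef, a PAR bZIP factor related to Dbp (log2 fold change -0.55 ± 0.17, adjusted p = 0.0293), and Rora, an activator of Arntl (-0.57 ± 0.19, adjusted p = 0.0384). Tef had 208 to 294 CPM in female controls, 130 to 209 CPM in sedentary pain and 245 to 300.5 CPM in active pain, and it rose in active against sedentary pain (0.62 ± 0.17, adjusted p = 0.0379). With single female libraries left out in turn, the call of Rora was lost in 6 of 12 fits, the fall of Tef in 5 and its rise in 9. Ciart, a repressor of the ARNTL and CLOCK pair, was at 0.968 to 1.99 CPM in female controls. In active females it had 6.81, 2.65, 6.55 and 0.730 CPM, high in the 2 samples with high Dbp (log2 fold change 1.65 ± 0.58, adjusted p = 0.604). The list's median log2 fold change in female sedentary pain was -0.37, beside -0.02 for all genes tested.

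Of 8 genes listed as acting on clock proteins, not all of them enzymes, 7 were tested. In female sedentary pain 4 passed, 2 higher and 2 lower, beside 33.5% of all genes. The kinase gene Gsk3b fell (log2 fold change -0.61 ± 0.20, adjusted p = 0.0388), as did the ubiquitin ligase gene Fbxw11 (-0.34 ± 0.12, adjusted p = 0.0467). Timeless, which also serves DNA replication, rose (0.85 ± 0.22, adjusted p = 0.0148), as did Csnk1d, a kinase of Period proteins (0.34 ± 0.11, adjusted p = 0.0345). Timeless passed in all 12 fits with 1 female library left out, while Fbxw11 was lost in 9 and Gsk3b and Csnk1d in 5 each. None of the 7 passed in active against sedentary females. The median log2 fold change of the 7 in sedentary pain was -0.30.

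Of 12 genes known as clock outputs in muscle, 2 rose and 1 fell in female sedentary pain, with a median log2 fold change of 0.24. These 3 of 12 are a smaller share than the 33.5% of all genes that passed. Cdkn1a, a cell cycle inhibitor that also responds to damage, rose by 1.80 ± 0.47 on the log2 scale (adjusted p = 0.0160), from 22.7 to 57.6 CPM in controls to 60.7 to 197 CPM. The hexokinase gene Hk2 rose (0.37 ± 0.13, adjusted p = 0.0417), and Slc2a4, the insulin-responsive glucose transporter, fell (-0.54 ± 0.16, adjusted p = 0.0269). With 1 female library left out, Hk2 was lost in 8 of 12 fits, Slc2a4 in 5 and Cdkn1a in 0. Against sedentary pain, Cdkn1a was the 1 gene of the 12 that passed in active females (-1.80 ± 0.47, adjusted p = 0.0353), beside 11.9% of all genes, and that call was lost in 6 of the 12 fits.

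Glucocorticoid response genes were listed because glucocorticoids set peripheral clocks, and 6 of 10 passed in female sedentary pain, 3 higher and 3 lower, beside 33.5% of all genes. Mt2 and Mt1, metallothioneins that also respond to metals and inflammation, rose by 6.04 ± 0.71 and 4.50 ± 0.68 on the log2 scale (adjusted p = 0.00225 and 0.00260). Klf9 (-1.94 ± 0.62, adjusted p = 0.0347) and Klf15 (-1.48 ± 0.25, adjusted p = 0.00303), transcription factors of metabolism, fell. Fkbp5 fell and Tsc22d3 rose, both induced by glucocorticoids in many tissues (-1.06 ± 0.31 and 0.96 ± 0.29, adjusted p = 0.0258 and 0.0284). Klf9 had 33.4, 5.14, 35.5 and 4.45 CPM in sedentary pain replicates 1 to 4, and its 2 lowest samples were those lowest in Arntl. In active against sedentary females Mt2 (-2.48 ± 0.60) and Mt1 (-2.20 ± 0.61) fell and Klf15 rose (1.22 ± 0.25), with adjusted p-values of 0.0328 to 0.0414, where 11.9% of all genes passed. Among the 12 fits with 1 female library left out, the sedentary pain calls of Mt1, Mt2 and Klf15 passed in all 12, while Klf9 was lost in 5, Tsc22d3 in 4 and Fkbp5 in 3. The calls between active and sedentary females were lost in 8 (Mt1), 5 (Mt2) and 5 (Klf15).

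In the comparison of active females with controls, in the 3 male comparisons and in the 3 sex differences, 0 genes of these 4 lists passed with edgeR, as 0% of all genes did. Between the control groups, where 2.83% of all genes passed, 1 gene of these lists did, Bhlhe41, a repressor that acts on E-boxes. It had 31.9, 23.0, 22.9 and 21.9 CPM in female and 48.7, 49.8, 49.7 and 63.2 CPM in male controls, which did not overlap (log2 fold change 1.08 ± 0.22, adjusted p = 0.00678).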

How the data were processed

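The authors deposited raw read counts per Ensembl gene, 1 file per sample, unnormalised whole numbers per the files' values. Per the submitters' processing notes, HISAT2 2.1.0, Salmon 0.9.1, featureCounts and DESeq2 1.24.0 were used with builds mm10 and GRCm38.p6; which tool made the counts and whether strand was used are not given in the sources used here. Libraries were stranded and read as pairs of 100 bases, per the labels' protocols. The members and gene lists were chosen with earlier results of these data known. Named from the lists are up to 4 genes per list and comparison past the threshold by size, and others that passed the filter. Some items are not reported here.

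Counts of all genes were fitted with edgeR 4.0.16 (limma 3.58.1, R 4.3.3): TMM scaling, filterByExpr with a minimum count of 10, robust quasi-likelihood F tests, two-sided, and Benjamini-Hochberg adjustment over all genes tested at 0.05. Each sex was fitted on its 12 samples. Sex differences, controls and printed CPM used all 24. Correlations used log2 CPM (prior count 2), 100000 two-sided permutations within groups (smallest p 1e-05), and adjustment over 9 pairs with Arntl or 20 with marker sums, in SciPy 1.17.1. Length is the union of exons in GENCODE M21, which held 54409 of the 54532 genes by identifier. On simulated counts modelled on female sedentary pain against control, 30% of genes changed by 1 and 82.8% of those changed by 2 on the log2 scale were called (14399 genes). For males these were 39% and 77.6% (14267 genes). Only 100 and 99 genes were changed by 1 and 2 in the female simulation (100 and 98 in the male one). There were 13 false calls in the female simulation and 3 in the male one. In the data 33.5% of genes passed in the female comparison and 0% in the male one. The simulated shares therefore do not give the share of real changes that was found. Deviations of same-numbered samples correlated over 0.1 in 6 of 12 pairs in females and 3 of 12 in males, short of every pair, so replicate numbers were not used as pairs. Alternatives were DESeq2 1.42.0, RLE scaling, no count filter, no robust step, a mean of at least 50 counts, a replicate block, a prior count of 0.5 in the correlations, no mitochondrial genes, replicate subsets, each sample left out, only the groups compared, and all samples in 1 fit. Added after seeing the data were the fit without both male pain libraries that stood apart and a term for replicates 1 and 2 against 3 and 4.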

Additional observations from a re-analysis of the deposited data

Results flagged for a closer look

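A sample was singled out where its gap to the nearest of the other 3 in its group took a larger share of the group's range than Dixon's critical value at 95% allows. Chance alone singles out about 1 in 20 groups, and 7 of the 60 groups of member levels were. The highest samples were Per1 in male active pain (34.0 CPM, replicate 1) and Per3 in female active pain (14.5 CPM, replicate 1). The lowest were Cry1 in female controls (13.6 CPM, replicate 3), male controls (17.0 CPM, replicate 3) and male sedentary pain (8.00 CPM, replicate 1). Cry2 in female sedentary pain (23.7 CPM, replicate 4) and Nr1d2 in male sedentary pain (32.4 CPM, replicate 1) were also lowest. Female active pain replicate 1 was the sample with the highest Dbp, and male sedentary pain replicate 1 the one with the highest neutrophil marker sum of its group.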

How the results depend on the processing

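Every member was followed over the alternatives in the female comparisons. In male pain against control, Arntl, Clock, Cry1, Nr1d1, Nr1d2 and Dbp were followed. Only some members were followed in the sex differences and between controls, and no single member in male active against sedentary pain. Of the 1445 fold changes followed, 1384 kept their direction and their side of the threshold. Of the others, 43 lost the threshold in the same direction, 6 gained it and 12 changed sign. Of 234 correlations with Arntl, 223 kept both, 2 lost the threshold and 9 changed sign. Counts that moved are given here. Members called in female sedentary pain against control numbered 5, and 4 without the count filter (Arntl lost, adjusted p = 0.0665), 3 with the replicate block, 0 in replicates 1 and 2, 1 in replicates 3 and 4 and 2 to 5 with a library left out. Active against sedentary females went from 1 to 0 without the count filter, in replicates 1 and 2, in replicates 3 and 4, with only the groups compared and with all 24 samples, to 2 with the replicate block, and 0 to 1 with a library left out. DESeq2 called 1 member (Nr1d1) in active females against control. Leaving out a library gave 0 to 1 in the sex difference of active against sedentary pain, and 2 to 4 in the correlations with Arntl. The control groups alone gave 2 members. The cause of these moves was not tested, beyond the smaller number of samples or genes fitted. With the replicate block, female sedentary pain lost Arntl (adjusted p = 0.0908), Clock (0.0638) and Cry1 (0.0639) and gained Per3 (0.05), and active against sedentary females gained Per3 (0.0484). The block changed no other count of members; same-numbered samples had a mean residual correlation of 0.103 in females (6 of 12 pairs over 0.1, lowest -0.305) and 0.00654 in males (3 of 12, lowest -0.652). Replicate numbers were therefore not taken as pairs. The split of replicates 1 and 2 from 3 and 4 as a term of the fit, added after seeing the data, moved no count of members.

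Among the values followed, sign changes touched only those that did not pass. With replicates 1 and 2 alone they were Per2 in female sedentary pain (-0.00479), Cry2 in active females against control (0.0317) and Arntl in active against sedentary females (-0.0182). With replicates 3 and 4 alone, active males against control gave Clock 0.208 and Dbp -0.170. With a library left out, the log2 fold changes in active females against control were -0.11 to 0.21 for Per3, -0.226 to 0.0257 for Cry2 and -0.144 to 0.000711 for Nr1d2. Against sedentary females they were -0.0502 to 0.474 for Per1, -0.031 to 0.578 for Per2 and -0.0468 to 0.204 for Cry2. Correlations with Arntl ran from -0.374 to 0.192 for Per2, -0.343 to 0.0643 for Cry2 and -0.0324 to 0.516 for Per3. All genes called ranged from 238 to 6674 over the alternatives in female sedentary pain (4867 reported), 0 to 4316 in active against sedentary females (1730), 0 to 155 in active females against control, 0 to 270 in the male comparisons, 0 to 2174 in the sex differences and 12 to 1904 between controls (427). Of 588 fold changes followed for genes that are not members, mostly calls of the reported fits, 415 kept their side of the threshold, 173 lost it and 0 changed sign. Per2 had the fewest counts of the members, as few as 39 in a sample.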
